A study of Mus musculus with 12 samples.

Results

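Fgf21, Klb, Fgfr1, Nrg4, Vegfa, Vegfb and Slit2 were chosen by name as the FGF21 axis and other secreted factors of thermogenic fat, and every ATAC-seq peak that the deposited tables assign to 1 of these 7 genes was taken. There were 56 such peaks among 58558 in brown fat (BAT) and 36 among 39558 in cold-acclimated inguinal white fat (iWAT). ATAC-seq counts the sites at which a transposase inserts into DNA, so that more reads in a peak mean more accessible chromatin. None of these peaks passed the test for a difference between the genotypes in either tissue (limma, adjusted p under 0.1). That test called 0 of all peaks in each tissue, so the absence of calls is not particular to these genes.

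Fibroblast growth factor 21 is a hormone of liver and thermogenic fat that signals through an FGF receptor, mainly FGFR1 in fat, and needs the membrane protein β-Klotho, encoded by Klb, as co-receptor. Neuregulin 4 is a ligand of the ErbB receptors that brown fat releases into the circulation. VEGF-A drives the growth of the dense capillary bed of brown fat, VEGF-B is its close relative, and SLIT2 is a guidance protein of which a fragment secreted by beige fat has been linked to thermogenesis.

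The study deleted BAF60a, the Smarcd1 product and a component of SWI/SNF chromatin remodelers, in fat cells and compared C57BL/6 mice with floxed BAF60a alleles (flox) with AKO mice, which carry the same floxed alleles and an Adiponectin-Cre transgene. BAT came from 3 flox and 3 AKO mice, 1 mouse per sample, whose age is not given in the sources used here. The study's methods give no housing temperature for these mice, so BAT and cold-acclimated iWAT may differ in cold exposure as well as in tissue. iWAT came from mice of 6 to 8 months that were cooled to 10 °C and held there for 7 days, and the pads of 6 mice per genotype were pooled and split into 3 aliquots, so that the iWAT replicates measure technical spread only. The Cre is active in adipocytes, whole tissue was sampled, and other cells keep BAF60a, so fewer cells of a type and less accessible DNA per cell cannot be told apart.

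All values below are normalized reads, the reads in a peak divided by the authors' size factor of the sample, and positions are those of mm10. Samples held 6336670 to 27500738 reads in peaks in BAT and 4066720 to 6691161 in iWAT. At the intron peak of Smarcd1 (chromosome 15, 99704113 to 99704521), BAT values were 136, 201 and 185 in flox and 23.7, 57.9 and 26.9 in AKO (limma adjusted p = 0.269, DESeq2 adjusted p = 4.0e-11). The sources used here do not say whether this peak lies in the deleted segment, so fewer reads there are no direct check of the deletion. The iWAT table has no peak there, so the same comparison could not be made in iWAT. In BAT, the first principal component (PC1) held 55.6% of the variance. Its score was −98.2, −41.8 and 14.6 in flox and −0.617, 112 and 13.5 in AKO. The lowest was that of flox replicate 1, the deepest sample, and the highest that of AKO replicate 2, the shallowest. The study used this score as a covariate in BAT, and so did the fit here. The fitted log2 fold change of a BAT peak is therefore adjusted for PC1, and the one without PC1 is given beside it for each BAT peak described. As PC1 ran partly with genotype as well as with depth, the adjustment can also remove part of a genotype difference. Peaks of 10 adipocyte marker genes were found for 10 of the 10 genes in each tissue. The summed level of the peaks of 10 thermogenic marker genes was 26886 to 31802 in flox and 18084 to 20077 in AKO BAT (DESeq2 called 9 of their 81 peaks lower), while that of 12 endothelial genes was 6891 to 7845 and 7520 to 8100. In iWAT, where 9 of the 10 thermogenic genes have a peak and Cpt1b has none, it was 1776 to 2002 in flox and 1890 to 2060 in AKO. The part of these differences in the results below was not tested.

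The sequences at the centre of these results are given first. The Fgf21 promoter is shown because the peak over it is the only Fgf21 peak of the BAT table, and it is printed 5′ to 3′ on the gene's own strand, ending at the base before the start site (RefSeq, GRCm38.p6, minus strand, chr7:45615491-45615740). None of 8 motifs searched on both strands was found in these letters, so that none is in capitals. The motif most often found in promoters, a PPAR element, occurred in 21.3% of 32851 RefSeq promoter windows of this length.
Fgf21 promoter: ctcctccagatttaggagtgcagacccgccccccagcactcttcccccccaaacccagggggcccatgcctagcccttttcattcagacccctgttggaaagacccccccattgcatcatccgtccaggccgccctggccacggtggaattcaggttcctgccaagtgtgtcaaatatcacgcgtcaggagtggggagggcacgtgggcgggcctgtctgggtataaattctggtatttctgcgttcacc

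The next sequences are the closest matches to a PPAR element in peaks of the FGF21 receptors and of Slit2, shown because PPAR elements are a main feature of adipocyte regulatory DNA. The element was written as AGGTCANAGGTCA, where N is any base, with up to 3 mismatches, and capitals mark the match. Each of the 3 has 1 mismatch, and they lie in intron 1 of Klb (chr5:65350690-65350742, plus strand), upstream of Fgfr1 (chr8:25433065-25433117, plus strand) and upstream of Slit2 (chr5:47279970-47280022, minus strand).
Klb, intron 1: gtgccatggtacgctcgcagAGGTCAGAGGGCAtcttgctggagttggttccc
Fgfr1, upstream: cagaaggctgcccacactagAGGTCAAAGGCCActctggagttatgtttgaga
Slit2, upstream: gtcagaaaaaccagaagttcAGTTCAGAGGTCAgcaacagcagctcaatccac
With so many mismatches allowed the element is common. It was found in 24 of the 56 BAT peaks (42.9%), beside 49.8% of all BAT peaks, and in 9 of the 36 iWAT peaks (25.0%), beside 42.1% of all iWAT peaks.

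The hypoxia element TACGTG is shown for Vegfa, a classical target of hypoxia-inducible factors. Capitals mark it in intron 1, where the BAT start-site peak holds it once on each strand (chr17:46031023-46031068, plus strand, and chr17:46031115-46031160, minus strand).
Vegfa, intron 1, first: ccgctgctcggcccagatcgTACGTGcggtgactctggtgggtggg
Vegfa, intron 1, second: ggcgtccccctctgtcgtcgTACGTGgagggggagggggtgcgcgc
The element was found in 8 of the 56 BAT peaks (14.3%), of Vegfa, Vegfb, Klb and Nrg4, and in 6.56% of all BAT peaks. In iWAT it was found in 4 of 36 (11.1%), and in 5.75% of all peaks. No match of any motif overlapped a match of another, and a match is a run of letters, not a bound site.

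In the count over all peaks, limma called 0 of 58558 BAT peaks (0%) and 0 of the 56 peaks of the 7 genes. DESeq2 on the recovered reads gave an adjusted p to 42663 BAT peaks and called 0.408% of them, and edgeR called 0.135% of all BAT peaks, with 0 of the 7 genes' peaks called by either. In iWAT, limma again called 0% of the peaks and edgeR 4.68%, and DESeq2 called 1.18% of the 35723 to which it gave an adjusted p. Of the 36 iWAT peaks of the 7 genes, DESeq2 called 0 and edgeR called 1, in intron 2 of Fgfr1. The threshold in each case was an adjusted p under 0.1 (Benjamini-Hochberg over all peaks).

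At an unadjusted p under 0.05 in limma, 2 of the 56 BAT peaks were lower in AKO (Klb and Fgfr1), beside 5.59% of all BAT peaks, and 2 were higher (both Vegfa), beside 3.46%. In iWAT, 2 of 36 were lower (Fgfr1 and Slit2), beside 7.42% of all peaks, and 2 were higher (both Vegfa), beside 7.61%. A pair of peaks is 3.57% of the 56 and 5.56% of the 36, near these background shares or under them. A peak had no overlap of the groups when every AKO sample lay on 1 side of every flox sample. In BAT, 4 peaks (7.14%) were lower without overlap, beside 8.84% of all peaks, and 6 (10.7%) were higher, beside 8.77%. In iWAT, 2 (5.56%) were lower, beside 10.3% of all peaks, and 1 (2.78%) was higher, beside 10.6%. For 3 samples against 3, the smallest exact permutation p is 0.1, so no peak could pass 0.05 by that test. The median fitted log2 fold change, AKO against flox, was −0.0025 over the 56 BAT peaks and 0.0067 over all BAT peaks, and without PC1 it was −0.10 and −0.01. It was 0.066 over the 36 iWAT peaks and −0.00089 over all iWAT peaks. The 95% intervals of 43 of the 56 BAT peaks and of 32 of the 36 iWAT peaks lay wholly between −1 and 1.

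**Figure D1:**
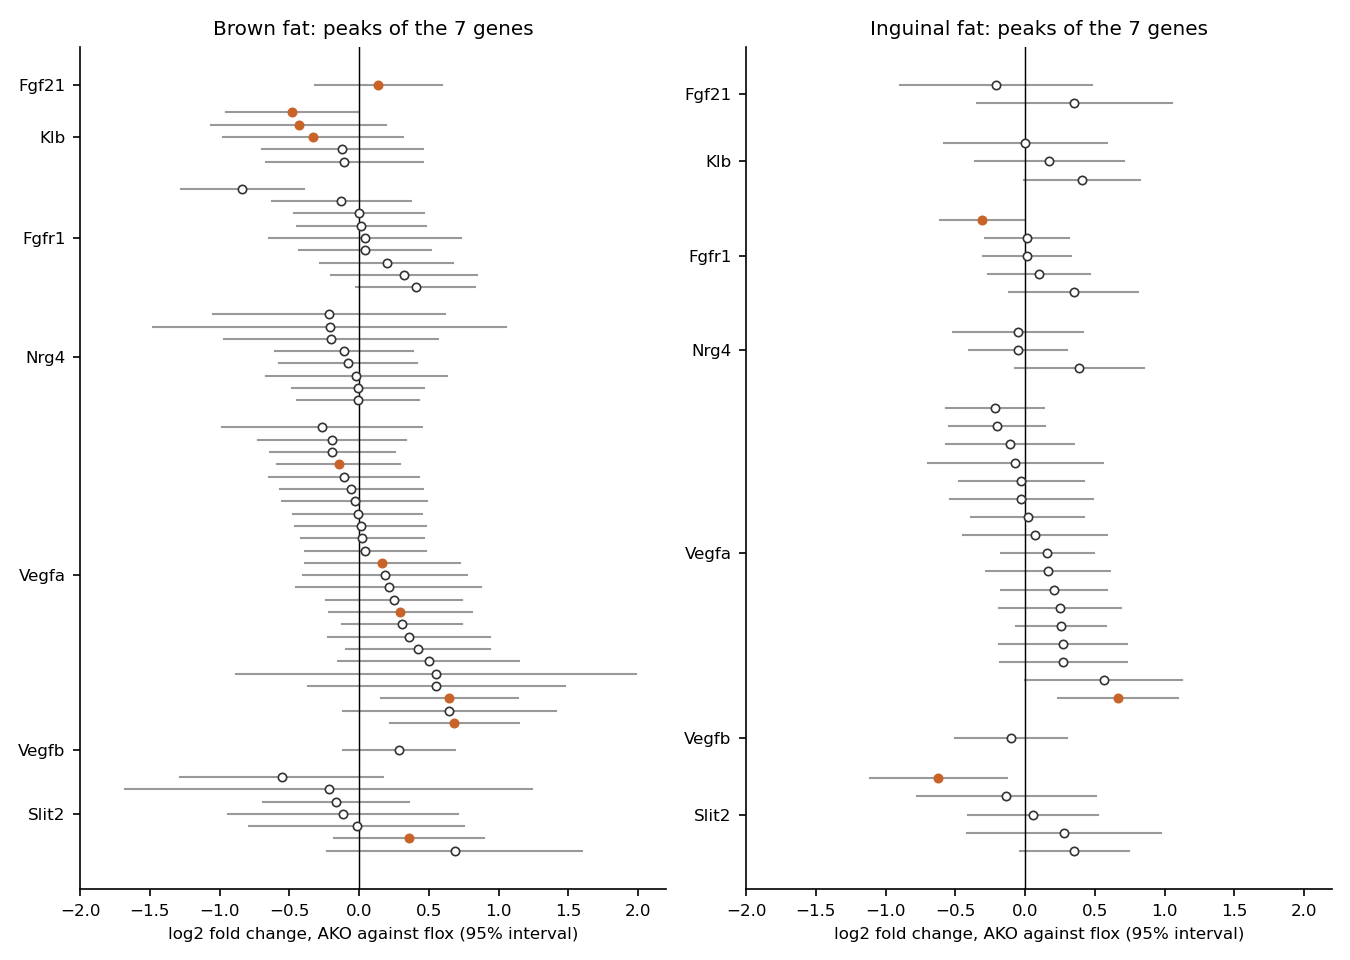
Fitted log2 fold change, AKO against flox, with its 95% interval (limma), of each of the 56 BAT peaks (left) and 36 iWAT peaks (right), by gene. Filled orange points are peaks whose groups do not overlap; the intervals of 52 BAT and 32 iWAT peaks include 0, and limma called none.

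Fgf21, the ligand, lies on chromosome 7 from 45613886 to 45615490 on the minus strand, and its BAT peak covers the promoter printed above and the start site (45614901 to 45616485, 1585 bp). Values were 151, 201 and 212 in the flox mice and 223, 400 and 263 in the AKO mice. The genotypes did not overlap, AKO being higher, and the highest value was that of AKO replicate 2, the shallowest library. The means were 188 ± 32.6 in flox and 295 ± 92.9 in AKO (SD, n = 3). The fitted log2 fold change was 0.14 with the PC1 covariate (95% interval −0.32 to 0.59, limma adjusted p = 0.855) and 0.62 without it. Leaving out 1 mouse at a time gave −0.08 (without flox replicate 3) to 0.26. By reads per kb in flox, the peak stood at percentile 8.75 of all BAT peaks, a low level.

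In iWAT, 2 narrow peaks lie within the same stretch. The one at the start site (45615311 to 45615549) had 18.5, 11.1 and 25.8 normalized reads in flox and 19.6, 20.6 and 28.9 in AKO, from 10 to 30 reads per aliquot, and the groups overlapped. Its log2 fold change was 0.35 (interval −0.34 to 1.05, limma adjusted p = 0.617). The other, centred 440 bp before the start site, had 21.4 to 49.9 in flox and 25.7 to 34.6 in AKO, a log2 fold change of −0.21 with an interval of −0.89 to 0.48. At these low counts no difference was detectable, and an interval that includes 0 does not show that the genotypes are alike.

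Klb, the co-receptor, lies on chromosome 5 from 65348314 to 65384007. All 5 of its BAT peaks, at the start site and in intron 1, had a fitted fold change below 0, from −0.48 to −0.11 with PC1 and from −0.72 to −0.25 without it. At the start site (65348314 to 65349038), the flox mice had 148, 153 and 122 normalized reads and the AKO mice 118, 114 and 79.6. No AKO value reached the lowest flox value, and the log2 fold change was −0.43 (interval −1.06 to 0.19, limma adjusted p = 0.664; −0.45 without PC1). It was −0.13 without AKO replicate 3 and −0.73 without flox replicate 3. The peak with the smallest p (65364826 to 65365359, 16681 bp past the start site) had 73.2, 79.8 and 99.6 in flox and 71.1, 69.5 and 61.4 in AKO, again without overlap. Its log2 fold change was −0.48 (interval −0.95 to −0.01, limma adjusted p = 0.549; −0.31 without PC1), and −0.27 without flox replicate 3.

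The remaining Klb peak without overlap, named after its values were seen, holds the PPAR element printed above (65350605 to 65351106, 2444 bp past the start site). Its values were 242, 302 and 228 in flox and 183, 104 and 194 in AKO BAT. The lowest value was that of AKO replicate 2, and the log2 fold change was −0.33 with PC1 (interval −0.98 to 0.31) and −0.72 without it. Over all 5 Klb peaks, the summed reads were 1038, 1199 and 1079 in flox and 940, 680 and 914 in AKO, a difference of −0.40 in mean log2 (exact permutation test, two-sided, p = 0.1, the smallest that the design allows). Without AKO replicate 2 the difference was −0.25. By the same permutation test, the summed reads of Fgf21 in BAT (0.62 in mean log2) and of Fgfr1 in iWAT (−0.07) also had p = 0.1. The iWAT value compares aliquots of 1 pool per genotype.

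The iWAT table has 3 Klb peaks, all in intron 1 and all overlapping a BAT peak, and it assigns none to the start site. The same intron element, at the peak from 65350697 to 65351039, had 47.8, 38.9 and 37.0 in flox and 53.0, 46.8 and 66.3 in AKO iWAT. The groups overlapped by 1 flox value, and the log2 fold change was 0.41 (interval −0.01 to 0.83, limma adjusted p = 0.338). In limma, all 3 of the paired Klb peaks had a fitted change below 0 in BAT and above 0 in iWAT. The iWAT changes were 0.41, 0.17 and 0.0019. The smallest had no stable sign, being −0.017 in DESeq2, −0.025 in edgeR and −0.16 to 0.21 with 1 aliquot left out. In BAT, leaving out 1 mouse gave −0.49 to −0.18 at the intron element above. It gave −0.26 to 0.03 and −0.32 to 0.25 at the paired peaks 5972 and 8728 bp past the start site. No test was made across the tissues, because the 2 tables were normalized separately.

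**Figure D2:**
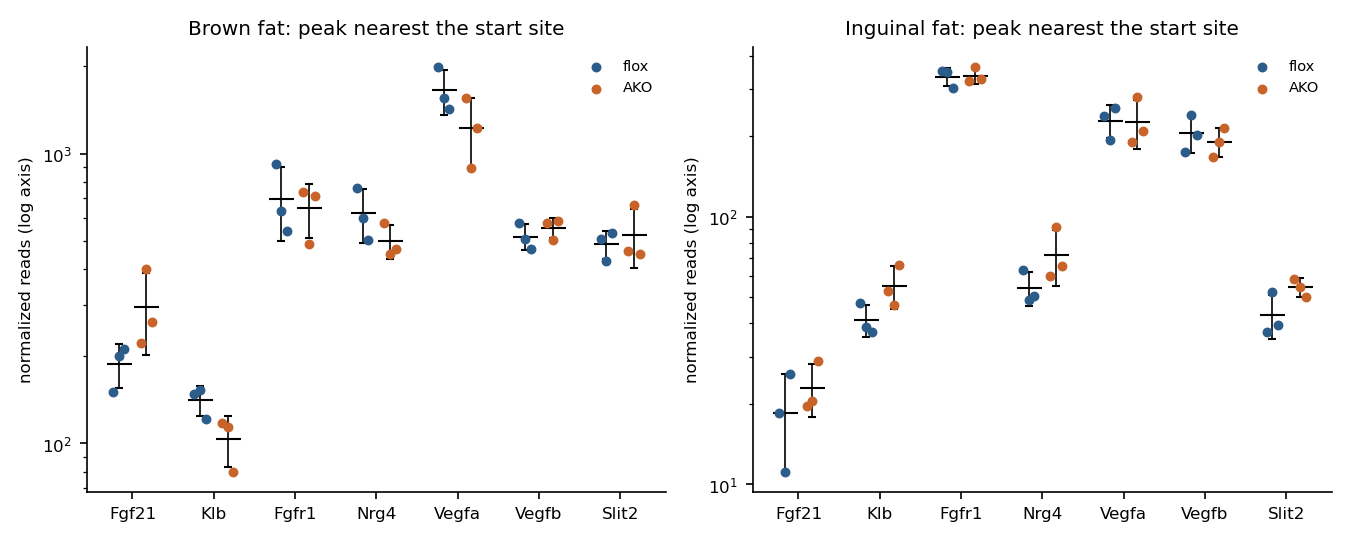
Normalized reads (log axis) in each sample at the peak nearest the start site of each gene, in BAT (left) and iWAT (right); blue points are flox and orange points AKO samples, and bars are the mean ± SD (n = 3). In BAT the groups lie apart at Fgf21 (AKO 223 to 400 against flox 151 to 212) and at Klb (AKO 79.6 to 118 against flox 122 to 153), and in iWAT they overlap at all 7 genes.

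Fgfr1, the receptor, has 9 BAT peaks, of which 2 had a fitted fold change below 0 and 7 above with PC1, with a median of 0.04. Without PC1, 8 were below 0 and 1 above, with a median of −0.10, so that the direction of these peaks turned with the covariate. Its start-site peak (chromosome 8, 25518571 to 25519730) is GC-rich (71.6%) and had 923, 632 and 541 normalized reads in flox and 738, 489 and 714 in AKO. The groups overlapped, and the log2 fold change was 0.41 with PC1 (interval −0.02 to 0.83, limma adjusted p = 0.566) and −0.10 without it. The smallest p of the 56 BAT peaks belonged to a peak 92277 bp upstream (25426345 to 25426619), which overlaps noncoding genes. There, values were 46.5, 53.9 and 81.5 in flox and 42.3, 69.5 and 40.3 in AKO. These groups overlap widely, and the fitted log2 fold change of −0.84 (interval −1.28 to −0.40, limma adjusted p = 0.436) was −0.26 without the PC1 covariate. DESeq2 gave it no adjusted p, and it was 0.403 in edgeR. The peak 85572 bp upstream (25432667 to 25433708), which holds the PPAR element printed above and is named for it, had 215, 169 and 189 in flox and 225, 205 and 191 in AKO, a log2 fold change of 0.20 (interval −0.28 to 0.67; 0.12 without PC1).

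In iWAT, 4 of the 5 Fgfr1 peaks had a fitted fold change above 0. The start-site peak (25518555 to 25519563) had 349, 347 and 303 in flox and 320, 362 and 326 in AKO, means of 333 ± 26.1 and 336 ± 22.5 (SD, n = 3 aliquots). Its log2 fold change was 0.01, with a narrow interval of −0.30 to 0.33. The peak in intron 2 (25535816 to 25537816, 18057 bp past the start site) was the exception. It had 401, 338 and 369 in flox and 299, 289 and 307 in AKO, with no overlap, and a log2 fold change of −0.31 (interval −0.61 to −0.00, limma adjusted p = 0.331). edgeR called it (adjusted p = 0.0757), among the 4.68% of peaks that it called, and DESeq2 did not (adjusted p = 0.198). In BAT, the peak over the same intron stretch had 702, 517 and 521 in flox and 527, 510 and 541 in AKO, a log2 fold change of 0.04 with PC1 (interval −0.43 to 0.52) and −0.13 without it.

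Nrg4, the secreted ErbB ligand, has 8 BAT peaks, 1 at the start site and 7 in intron 3, and all 8 had a fitted fold change below 0, from −0.22 to −0.01 with PC1 (median −0.09) and from −0.85 to −0.11 without it (median −0.37). The start-site peak (chromosome 9, 55282787 to 55284206) had 763, 599 and 504 normalized reads in flox and 574, 452 and 470 in AKO, with overlap at 1 AKO value. Its log2 fold change was −0.01 with PC1 (interval −0.48 to 0.47, limma adjusted p = 0.995) and −0.31 without it. The peak with the smallest p (55246385 to 55247181) had 529, 288 and 323 in flox and 346, 232 and 192 in AKO, a log2 fold change of −0.22 with PC1 (interval −1.05 to 0.61, limma adjusted p = 0.875) and −0.56 without it. With a replicate block besides PC1 it was −0.78. Flox replicate 1 had the highest value at both peaks. Intron 3 holds the peak of these 7 genes' introns that ranks highest by reads per kb, at percentile 99.5 of all BAT peaks (55255542 to 55256040), and 0 of the 8 Nrg4 peaks separated the groups. The summed Nrg4 reads were 3725, 2738 and 2429 in flox and 2754, 1771 and 1972 in AKO, a difference of −0.46 in mean log2 (exact permutation test, two-sided, p = 0.3), which was −0.28 without flox replicate 1.

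In iWAT, Nrg4 has 3 peaks. At the start site (55283556 to 55283869), flox aliquots had 63.4, 48.9 and 50.8 and AKO aliquots 59.9, 91.3 and 65.2. One flox value lay among the AKO values, and the log2 fold change was 0.39 (interval −0.08 to 0.85, limma adjusted p = 0.408). Both intron peaks had −0.05, with intervals of −0.52 to 0.41 and −0.40 to 0.30.

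Vegfa, the angiogenic factor, takes up 25 of the 56 BAT peaks and 17 of the 36 iWAT peaks, from 24213 bp before a start site to 145218 bp after it, the distance being to the nearer of 2 start sites of the table. It lies on chromosome 17 from 46016993 to 46032369 on the minus strand. The BAT peak over the first start site (46030591 to 46032905), which holds both hypoxia elements printed above, had 1984, 1550 and 1422 normalized reads in flox and 1559, 888 and 1221 in AKO. The means were 1652 ± 295 and 1223 ± 335 (SD, n = 3), the groups overlapped by 1 AKO value, and the log2 fold change was −0.01 with PC1 (interval −0.47 to 0.45, limma adjusted p = 0.991) and −0.46 without it. In iWAT the start-site peak (46032027 to 46032915) had 237, 193 and 256 in flox and 190, 280 and 209 in AKO, with overlap, a log2 fold change of −0.03 (interval −0.47 to 0.42, limma adjusted p = 0.961).

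The Vegfa peaks with the smallest p lie far downstream. In BAT it was a peak 93768 bp past the nearer start site (45931152 to 45931639), with 97.2, 103 and 103 in flox and 175, 135 and 151 in AKO. The flox values nearly coincide, all AKO values are above them, and the log2 fold change was 0.68 (interval 0.22 to 1.14, limma adjusted p = 0.473). It was 0.59 without PC1 and 0.52 to 0.83 with any 1 mouse left out. In iWAT it was a peak 131849 bp past the nearer start site (45893208 to 45893421), with 22.8, 27.8 and 19.8 in flox and 42.6, 40.0 and 31.0 in AKO. These aliquots held 23 to 37 reads at the peak and did not overlap, and the log2 fold change was 0.67 (interval 0.24 to 1.10, limma adjusted p = 0.19).

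A peak present in both tables, 121577 bp past the nearer start site in BAT and 121488 bp in iWAT, named after its values were seen, had an interval above 0 in each. In BAT (45903547 to 45903625) it had 7.32, 8.13 and 14.2 in flox and 19.6, 29.0 and 20.1 in AKO, which are 11 to 21 reads per mouse, with a log2 fold change of 0.65 with PC1 (interval 0.16 to 1.14, limma adjusted p = 0.487) and 1.17 without it. In iWAT (45903471 to 45903879) it had 29.2, 22.2 and 37.9 in flox and 56.5, 38.8 and 37.4 in AKO, with a log2 fold change of 0.56 (interval 0.00 to 1.12, limma adjusted p = 0.33). The groups overlapped in iWAT and not in BAT, and the peak was called in neither.

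Of the other BAT Vegfa peaks, 3 separated the groups and were also named after their values were seen. An intron 2 peak (46027197 to 46027914) had 732, 658 and 630 in flox and 616, 438 and 509 in AKO. Beyond the gene, a peak of 73 bp (45886403 to 45886475) had 12.02 to 16.3 in flox and 16.3 to 25.1 in AKO, and one of 533 bp (45879679 to 45880211) had 119 to 128 in flox and 130 to 181 in AKO. Their log2 fold changes were −0.15, 0.17 and 0.30 with PC1, each with an interval that included 0, and −0.38, 0.45 and 0.31 without it. With a boundary at 45 kb past the first start site, set after the values were seen, 7 of the 8 more distant BAT peaks and 4 of the 5 in iWAT had a fitted fold change above 0, with medians of 0.36 and 0.28. Between the start site and that boundary, 6 of 12 in BAT and 5 of 8 in iWAT did, with medians of 0.00025 and 0.047. Before the start site, 4 of 5 in BAT and 2 of 4 in iWAT did, with medians of 0.21 and 0.07. Without PC1, the BAT counts were 7 of 8 past the boundary, 5 of 12 up to it and 2 of 5 before the start site, with medians of 0.38, −0.12 and −0.11. A BAT peak 44.8 kb past the first start site, just inside the boundary, had −0.11 with PC1 and 0.61 without it. The counts therefore depend on where the boundary was set, and they are a description only. Over all peaks, 49.1% in BAT (with PC1) and 50.1% in iWAT had a fitted fold change below 0. Summed over all Vegfa peaks, BAT had 9461, 7782 and 7905 normalized reads in flox and 9177, 6335 and 7279 in AKO, a difference of −0.15 in mean log2 (exact permutation test, two-sided, p = 0.4), which was −0.03 without AKO replicate 2.

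**Figure D3:**
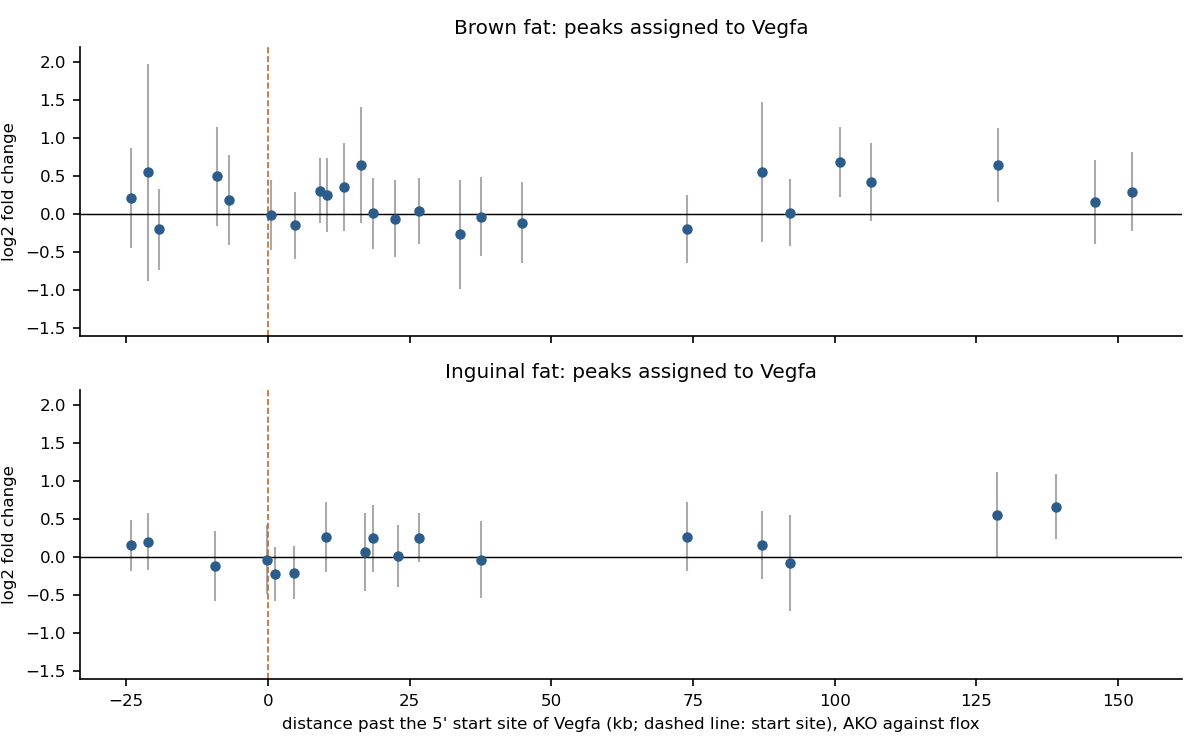
Fitted log2 fold change, AKO against flox, with its 95% interval (limma), of the peaks assigned to Vegfa, by distance of the peak centre past the first start site in kb (dashed line), in BAT (25 peaks, top) and iWAT (17 peaks, bottom). The start-site peaks lie at −0.01 and −0.03, and the highest point of each panel is at 101 kb in BAT (0.68) and 139 kb in iWAT (0.67).

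Vegfb has 1 peak in each table, over its start site on chromosome 19, which in BAT also overlaps the neighbouring gene Dnajc4, so that the 2 genes share its reads. BAT values (6986400 to 6987912) were 574, 508 and 470 in flox and 575, 504 and 584 in AKO. The groups overlapped, and the log2 fold change was 0.28 with PC1 (interval −0.12 to 0.69, limma adjusted p = 0.658) and 0.10 without it. iWAT values (6987025 to 6987820) were 175, 240 and 201 in flox and 167, 191 and 215 in AKO, a log2 fold change of −0.10 (interval −0.50 to 0.30, limma adjusted p = 0.82).

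Slit2 was assigned 7 BAT and 5 iWAT peaks, of which 4 and 3 lie over 400 kb upstream of its start site on chromosome 5, so that their link to Slit2 is only that of the nearest start site. The BAT start-site peak (47982805 to 47985404) had 505, 426 and 530 normalized reads in flox and 460, 662 and 450 in AKO. AKO replicate 2 was the highest and the other AKO mice lay among the flox mice, and the log2 fold change was −0.16 with PC1 (interval −0.69 to 0.36, limma adjusted p = 0.848) and 0.09 without it. In iWAT the start-site peak (47982935 to 47983252) had 37.1, 52.3 and 39.6 in flox and 58.8, 54.8 and 50.3 in AKO, a log2 fold change of 0.35 (interval −0.04 to 0.74, limma adjusted p = 0.377).

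The Slit2 peak with the smallest p was the same distant element in both tables, 703359 bp upstream in BAT. In BAT (47279582 to 47280011), where it includes the PPAR element printed above, it had 124, 85.7 and 115 in flox and 88.7, 81.1 and 55.6 in AKO. One AKO value lay above the lowest flox value, and the log2 fold change was −0.55 (interval −1.28 to 0.17, limma adjusted p = 0.637; −0.53 without PC1), and −0.23 without AKO replicate 3. In iWAT (47279591 to 47279949), a narrower peak that ends before that element, it had 53.5, 70.0 and 61.1 in flox and 29.97, 50.2 and 40.6 in AKO. All AKO aliquots were below all flox aliquots, and the log2 fold change was −0.62 (interval −1.11 to −0.13, limma adjusted p = 0.244). A BAT peak 404215 bp upstream (47578848 to 47579032), named after its values were seen, had 10.5, 17 and 23.3 in flox and 24.7, 83.1 and 37.4 in AKO. Its log2 fold change was 0.36 with PC1 (interval −0.18 to 0.90) and 1.35 without it, and the highest value was again that of AKO replicate 2.

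**Figure D4:**
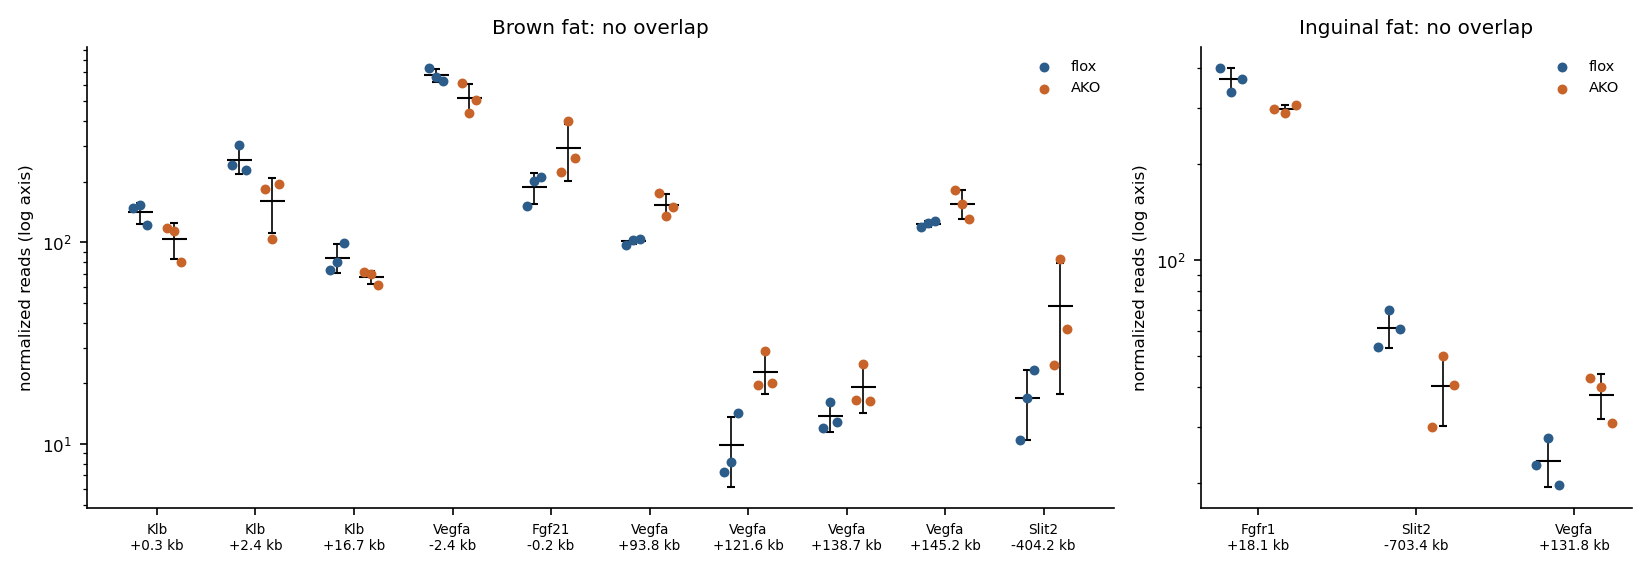
Normalized reads (log axis) in each sample at the 10 BAT peaks (left) and 3 iWAT peaks (right) whose groups do not overlap; blue points are flox and orange points AKO samples, bars are the mean ± SD (n = 3), and the distance under each gene is that of the peak centre to the nearer start site. Lower peaks come first in each panel: 3 of Klb and 1 of Vegfa in BAT, and 1 each of Fgfr1 and Slit2 in iWAT.

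Of the 56 BAT peaks, 29 (51.8%) overlapped by at least 1 bp a peak of the same 7 genes in the iWAT table, as did 32 of the 36 iWAT peaks (88.9%) in the other direction. This made 32 overlapping pairs, of which 19 had fitted fold changes of the same sign with PC1 in the BAT fit and 13 without it. With PC1 these were 11 of 15 for Vegfa, 3 of 4 for Fgfr1, 2 of 3 for Nrg4, 2 of 4 for Slit2, 1 of 2 for Fgf21, 0 of 3 for Klb and 0 of 1 for Vegfb. Without PC1 they were 6 of 15 for Vegfa, 1 of 4 for Fgfr1 and 3 of 4 for Slit2, with the others as before. The pairs are not all distinct, since the BAT start-site peaks of Vegfa, Slit2 and Fgf21 are each in more than 1 pair. Fold changes near 0 count in full, such as 0.0013 at a BAT intron peak of Fgfr1. No such share was computed over the peaks of all genes, so these counts have no background.

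The pathways around these genes were examined in 6 lists of other genes, written from general knowledge. In BAT, 0 peaks of any list were called by limma, DESeq2 or edgeR. In iWAT limma called 0 of them, DESeq2 called 4 and edgeR 21. By edgeR, the FGF21 pathway list had 8 lower (6.45% of its peaks) and 1 higher (0.806%). The list of Fgf21 regulators had 1 (1.33%) and 3 (4%), and the neuregulin list 0 and 2 (6.45%). The VEGF list had 0 and 2 (3.77%), the SLIT and ROBO list 2 (4.35%) and 1 (2.17%), and other secreted factors 0 and 1 (1.37%). Over all 39558 iWAT peaks, edgeR called 1006 lower and 846 higher. The 21 calls are 5.22% of the 402 list peaks in iWAT, beside 4.68% of all peaks. The 4 are 0.995% of the 402, beside 1.18% of the peaks to which DESeq2 gave an adjusted p. Both pooled shares were near the background. With both directions together, edgeR called 7.26% of the FGF21 pathway peaks and 5.33% of the Fgf21 regulator peaks. The shares were 6.45% for neuregulin, 3.77% for VEGF, 6.52% for SLIT and ROBO and 1.37% for other secreted factors. They lay on either side of 4.68%, and each list held few calls. The shares by list and direction above count 1 direction only, while 4.68% counts both. The FGF21 pathway list (receptors, adaptors, the ERK cascade and its feedback and early target genes) has peaks for 35 of its 37 genes, 189 in BAT and 124 in iWAT, with median log2 fold changes of 0.06 and −0.02. In iWAT DESeq2 called 1 of them lower, at Fos, an early response gene. Its means were 239 ± 34.1 in flox and 169 ± 19.3 in AKO (SD, n = 3 aliquots; DESeq2 adjusted p = 0.0935, limma adjusted p = 0.233).

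The list of upstream regulators of Fgf21 had 134 BAT peaks for 16 of 16 genes, with a median of −0.17, with 26 lower (19.4%, beside 8.84% of all peaks) and 10 higher (7.46%, beside 8.77%) without overlap of the groups. At an unadjusted limma p under 0.05, 24 were lower (17.9%, beside 5.59%) and 6 higher (4.48%, beside 3.46%). This list contains Pparg and Ppargc1a, which are also among the adipocyte and thermogenic markers whose summed level was lower in AKO BAT. Several peaks can belong to 1 gene, and the number that belong to Pparg or Ppargc1a was not counted. In iWAT it had 75 peaks for 15 of 16 genes and a median of 0.04, with 5 lower (6.67%, beside 10.3% of all peaks) and 19 higher (25.3%, beside 10.6%) without overlap. At an unadjusted limma p under 0.05, 2 were lower (2.67%, beside 7.42%) and 14 higher (18.7%, beside 7.61%), and there was 1 peak that DESeq2 called higher, at Ppara, a fatty-acid-sensing receptor that induces Fgf21. That peak had 377 ± 28.5 in flox and 479 ± 38.6 in AKO (DESeq2 adjusted p = 0.0953, limma adjusted p = 0.301). In the other lists, 7.41% to 11.3% of BAT peaks were lower and 5.82% to 16.2% higher without overlap. In iWAT these shares were 3.77% to 13.0% and 4.84% to 16.1%. At an unadjusted limma p under 0.05, they were 2.70% to 6.90% and 1.06% to 6.34% in BAT. In iWAT they were 1.89% to 9.68% and 4.35% to 12.9%.

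The neuregulin list had a peak for 13 of 14 gene symbols in BAT and 12 in iWAT, with Rnf41 also listed as Nrdp1. Its medians were −0.05 over 37 BAT peaks and 0.04 over 31 iWAT peaks, with 0 called by DESeq2. The VEGF signalling list had a peak for 15 and 14 of 17 symbols, with Vegfd also listed as Figf. Its medians were −0.0039 over 106 BAT peaks and 0.11 over 53 iWAT peaks. In iWAT DESeq2 called 1 of these higher, at Nrp2, a neuropilin co-receptor of VEGF family members, with 38.6 ± 7.43 in flox and 72.2 ± 6.78 in AKO (DESeq2 adjusted p = 0.0897, limma adjusted p = 0.151). The SLIT and ROBO list (12 and 10 of 12 genes) had medians of −0.07 over 58 peaks and −0.01 over 46, with 0 called by DESeq2. Other secreted factors of thermogenic fat (26 of 27 genes in each tissue) had medians of −0.01 over 142 BAT peaks and 0.00099 over 73 iWAT peaks. Among these, DESeq2 called 1 iWAT peak higher, at Fgf1, a growth factor, with 67.6 ± 20.1 in flox and 124 ± 3.76 in AKO (DESeq2 adjusted p = 0.0215, limma adjusted p = 0.166).

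Other cells of the tissue were followed by the peaks of their marker genes. Summed normalized reads in BAT were 34886 to 39468 in flox and 24529 to 33061 in AKO for adipocytes, 4276 to 4622 and 3768 to 4328 for pericytes and smooth muscle cells, and 3022 to 3276 and 2902 to 3168 for fibroblasts and preadipocytes. For Schwann cells they were 5355 to 5773 and 5109 to 5608. Macrophage markers had peaks for 3 of 8 genes (398 to 497 and 464 to 546), lymphocyte markers for 2 of 10 (126 to 141 and 107 to 172) and skeletal muscle markers for 4 of 10 (514 to 644 and 599 to 817). In BAT, adipocyte and thermogenic markers separated the genotypes, with every AKO mouse below every flox mouse, and of the other lists none did.

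In iWAT, the sums were 4799 to 6178 in flox and 5137 to 5595 in AKO for adipocytes, 1915 to 2187 and 1895 to 2024 for endothelial cells, 1225 to 1258 and 1298 to 1323 for pericytes and smooth muscle cells, and 2383 to 2608 and 2155 to 2454 for fibroblasts and preadipocytes. For Schwann cells they were 1530 to 1549 and 1496 to 1607. Macrophage markers had peaks for 4 of 8 genes (282 to 329 and 253 to 315), lymphocyte markers for 1 of 10 (60.0 to 74.9 and 75.9 to 92.2) and skeletal muscle markers for 5 of 10 (956 to 1136 and 919 to 960). Pericyte and lymphocyte markers were higher in every AKO aliquot than in every flox aliquot, and the other lists overlapped. The part of any of these in the values of the 7 genes was not tested.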

How the data were processed

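The authors mapped paired-end reads to mm10, removed duplicates and non-autosomal reads, called broad peaks per sample, kept those found in 2 or more replicates of either genotype and counted reads in them. The submitters' processing notes name BWA 0.7.17-r1188, Picard 2.8.14, MACS2 2.1.1.20160309, bedtools 2.27.1 and DESeq2 1.20.0. The deposited signal values are counts of reads in each peak over the size factor of the sample, as the authors computed it. Dividing each column by its smallest step gave whole reads for 100% of values (within 0.01), and these reads entered the count tests. The authors' fold changes and p-values in the deposited tables were not used, and 0 columns of per-sample values were left unused. The BAT table was told from the iWAT table by elimination, since the sample labels name the latter.

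Each table was fitted on its own with limma 3.58.1 (R 4.3.3) on log2(normalized reads + 1), comparing AKO to flox. In BAT the PC1 score, computed here on the same values, was a covariate, as in the study's methods. P-values were adjusted by Benjamini-Hochberg over all peaks of a table, with a threshold of 0.1. Log2 fold changes are on that scale, which understates changes of low peaks. Alternatives were DESeq2 1.42.0 and edgeR 4.0.16 (quasi-likelihood) on the reads, other normalizations, pseudocounts and filters, blocks by replicate number and each sample left out; DESeq2 without PC1 and all alternatives for the pathway lists were added after seeing the data. DESeq2 gave no adjusted p to 11 of the 56 and 2 of the 36 peaks. In simulated data, with 100 BAT peaks changed by 1 log2 unit, limma recovered 7, DESeq2 76 and edgeR 78, and at 2 log2 units limma recovered 94 of 100. In iWAT limma recovered 69 and 99. The changed peaks were drawn from peaks with a mean of at least 100 reads, so recovery at lower peaks was not measured. The median peak held 70 to 226 reads per BAT sample and 62 to 98 per iWAT sample, and the median standard error of the log2 fold change was 0.221 and 0.179.

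The genes, the 6 pathway lists and the 9 marker lists were chosen with earlier results of these data known. Named in full were, per gene and table, the peak nearest the start site, the peak with the smallest limma p and any peak with non-overlapping groups and a log2 fold change of at least 1 in size (there was none); from each list, up to 2 called peaks per direction; and the 3 other genes whose peaks were most like the member peak with the smallest p. Distances run from the start site to the peak centre, and genes follow GENCODE M21. Promoters are those of RefSeq, which matched 6 of the 7 genes and not Fgfr1. Motifs were searched as strings on both strands, and 400 of 400 planted sites were found. Besides the PPAR and hypoxia elements (the latter in 2.72% of promoters) they were the cAMP element TGACGTCA (1.55% of promoters), EBF as TCCCNNGGGA (0.779%), the ERR element TCAAGGTCA (0.387%), NF1 as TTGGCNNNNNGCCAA (0.0365%), the C/EBP element TTGCGCAA (0.164%) and the carbohydrate element CACGTGNNNNNCACGTG with up to 2 mismatches (0.779%), which were in 0 to 2 of the 56 BAT peaks and 0 to 1 of the 36 iWAT peaks. Other tools were Python 3.11.15, numpy 2.4.6, pandas 2.3.3, scipy 1.17.1, pysam 0.24.0 and matplotlib 3.10.9, with random seed 1.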

Additional observations from a re-analysis of the deposited data

How the results depend on the processing

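No peak of the 7 genes was called in either tissue under any limma alternative or by DESeq2, and edgeR called 1 in iWAT. Over all peaks, BAT calls rose from 0 in limma to 174 with DESeq2, 79 with edgeR, 603 with DESeq2 without PC1 (303 lower and 300 higher) and 1 with a pseudocount of 10. iWAT calls rose to 420 with DESeq2, to 1852 with edgeR and to 314 with only peaks of at least 50 mean normalized reads. For the pathway lists, DESeq2 without PC1 called 10 BAT peaks, and in iWAT DESeq2 called 4, edgeR 21 and that filter 2. Peaks without overlap went from 4 lower and 6 higher to 2 and 8 in BAT with total reads as the scale, and from 6 to 3 higher with the filter or 2 within 100 kb of a start site. In iWAT they went from 2 to 1 lower within 100 kb, and from 1 higher to 2 with total reads and to 0 with the filter or within 100 kb. With an overlap of at least 50% of both peaks required, 20 iWAT peaks in place of 32 had a BAT counterpart.

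The PC1 score as a covariate in iWAT, where PC1 separates the genotypes, moved the median to −0.26 and reversed the fold change at Vegfa 131849 bp downstream (−0.71), the Slit2 start site (−1.29) and Fgfr1 intron 2 (0.60). In BAT, leaving PC1 out, with or without replicate numbers in its place, reversed the start-site peaks of Slit2 (0.087) and Fgfr1 (−0.10), as did DESeq2 without PC1 (0.10 and −0.11). Within 100 kb, summed Slit2 reads in iWAT differed by 0.16 in log2. Leaving out 1 sample gave −0.19 to 0.0063 for the summed reads of Fgfr1 and −0.050 to 0.20 for Slit2 in BAT, and −0.20 to 0.27 for Fgf21, −0.060 to 0.18 for Nrg4, −0.21 to 0.018 for Vegfb and −0.13 to 0.063 for Slit2 in iWAT. Single peaks ranged from −0.19 to 0.15 (Vegfa start site), −0.076 to 0.26 (Fgf21), −0.55 to 0.18 and −0.13 to 0.14 (Nrg4) in BAT, and from −0.19 to 0.087 (Vegfa start site), −0.21 to 0.018 (Vegfb) and −0.052 to 0.050 (Fgfr1 start site) in iWAT. The causes were not tested.

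Replicate numbers were not taken as pairs. Deviations of same-numbered samples from their genotype means correlated at 0.49, 0.06 and −0.24 in BAT and −0.04, −0.05 and −0.06 in iWAT. Not every sample correlated best with its own number, though flox replicates 1 and 2 did in BAT. Deviations from a mean of 3 samples sum to 0 within a genotype, so these correlations cannot decide whether the samples are paired. With a replicate block (in BAT in place of PC1 or besides it), 0 peaks of the 7 genes and 0 peaks in all were called in either tissue.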

Other observations

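The peaks whose pattern over the 6 samples was most like that of the Fgfr1 peak 92277 bp upstream in BAT were assigned to 4930524C18Rik, Mir5130 and Ick, with Pearson's r of 0.9995, 0.998 and 0.995 on log2(normalized reads + 1), and 123 BAT peaks had an r of at least 0.95. For the Vegfa peak 131849 bp downstream in iWAT they were assigned to Gm14092, Slc39a14 and Zc3h12a, with r of 0.9989, 0.994 and 0.994, and 190 iWAT peaks reached 0.95. These values share the libraries and their depth and are given as a description.

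By reads per kb in flox BAT, the 18 intron peaks of the 7 genes had a median percentile of 87.8 among all BAT peaks, the 7 start-site peaks one of 66.7 and the 15 upstream peaks one of 47.3. Of the start-site peaks, those of Vegfa (percentile 93.5) and Fgfr1 (89.4) were the most accessible and that of Fgf21 (8.75) the least. Among the iWAT start-site peaks Fgfr1 was highest, at percentile 89.2 of all iWAT peaks, and Fgf21 lowest, at 5.32.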
